A study of Mus musculus with 9 samples.

Results

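The genes described here are those of the mouse F-box protein family, measured in single metaphase II oocytes. They were taken by name: every row of the expression table that carried exactly 1 gene symbol, with a symbol starting in Fbxo, Fbxw or Fbxl and a digit, without Fbxo5 and Fbxo43, and with the row of the highest mean over the arrays for a gene with several rows. This gave 69 genes of the 19938 genes with a row of their own, made up of 34 Fbxo, 18 Fbxl and 17 Fbxw genes. RefSeq (GRCm38.p6) lists 79 genes with names of this form and holds all 69 members. One of them, Fbxl12os, is a noncoding RNA from the opposite strand of Fbxl12 and not an F-box protein gene. Members with more than 1 row numbered 3, namely Fbxl7, Fbxo31 and Fbxw7.

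F-box proteins are the part of the SCF ubiquitin ligase that chooses its target. The F-box motif binds the adaptor Skp1, which sits on the scaffold Cul1 together with the RING protein Rbx1, while the rest of the protein recognises a substrate, often one that carries a phosphate or a sugar chain. Fbxw proteins recognise substrates through WD40 repeats, Fbxl proteins through leucine-rich repeats, and Fbxo proteins through other domains. In the mouse, a block of closely related Fbxw genes on chromosome 9 is known for its expression in oocytes, and SCF ligases take part in the meiotic divisions and in the turnover of maternal proteins after fertilization.

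Each array held the RNA of 1 unfertilized oocyte from superovulated, non-mated females of the outbred ICR strain, 2 months of age, that had received 10 IU of PMSG followed after 46 hours by 10 IU of hCG. The 9 oocytes fell into 3 groups of 3: RNA purified on columns of the Qiagen RNeasy Mini kit, RNA purified on columns of the Arcturus PicoPure kit, and a crude lysate made with NuGEN direct lysis and not purified. All were amplified with the NuGEN WT Ovation One-Direct kit and read on Affymetrix Mouse Gene 1.0 ST arrays, and the values are the deposited log2 expression values. The labels give between 1 and 3 cells from each of 3 mice per condition and do not tie an oocyte to a mouse, so the spread behind the p-values is that of single oocytes, and oocytes of 1 mouse can be among them. Fewer molecules in the cell and a poorer yield of a preparation cannot be told apart here.

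As a background, the 95th percentile of the 1233 receptor genes for smell, pheromones and taste was taken on each array, which lay between 7.19 and 7.47 on the log2 scale. All 10 oocyte markers, such as Zp3, Gdf9 and Mos, lay above background on all 9 arrays. Of 10 cumulus and granulosa cell markers with a row, 1 did so (Foxl2) and 5 lay above it on no array, Amh, Fshr and Inha among them. Of 5 blood and immune cell markers, 1 lay above it on all arrays (Cd3e) and 3 on none, Ptprc among them. The mean level of the cumulus and granulosa list over an array ran from 6.80 to 7.39 with RNeasy, from 6.70 to 6.86 with PicoPure and from 6.81 to 7.002 with direct lysis. The third RNeasy oocyte stood apart in this list: Inhba (8.48), Tnfaip6 (8.39) and Ptgs2 (7.56) lay above background in it and in no other oocyte. Their part in the results was not tested. Without this oocyte 47 members lay above background on all arrays, all 8 genes of the Fbxw block among them. The count of 47 is given without the share of all genes. Fbxo11 then differed by -0.44 between direct lysis and purified RNA (limma adjusted p = 0.0438).

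The Fbxw block on chromosome 9 holds 15 genes in RefSeq, Fbxw13 to Fbxw16 and Fbxw18 to Fbxw28, with 3 small nuclear RNA genes and 1 long noncoding RNA gene as the only other genes in its span. Of the 15 genes, 8 had a row of their own and are members. Another 2 rows carried the symbols of several of these genes and were not used. Promoters were in the RefSeq table for 12 of the 15 genes, 6 of them members (Fbxw13 and Fbxw22 are named only). They are shown because these neighbouring genes all stood far above background in every oocyte. Each sequence runs from 110 bases before the RefSeq gene start to 50 bases after it, on the minus strand of GRCm38.p6, and the capitals mark the longest run of bases that all 6 hold in this window.
Fbxw21: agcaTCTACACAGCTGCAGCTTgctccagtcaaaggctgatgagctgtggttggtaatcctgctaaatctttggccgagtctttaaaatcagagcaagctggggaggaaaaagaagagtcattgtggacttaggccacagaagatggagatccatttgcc
Fbxw20: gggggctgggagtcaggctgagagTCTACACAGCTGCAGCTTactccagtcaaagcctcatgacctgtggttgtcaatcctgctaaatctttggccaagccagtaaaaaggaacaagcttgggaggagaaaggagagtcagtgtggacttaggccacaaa
Fbxw15: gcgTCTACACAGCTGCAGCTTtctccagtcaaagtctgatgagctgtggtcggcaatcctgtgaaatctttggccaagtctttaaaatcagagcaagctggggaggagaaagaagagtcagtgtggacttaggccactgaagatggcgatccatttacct
Fbxw24: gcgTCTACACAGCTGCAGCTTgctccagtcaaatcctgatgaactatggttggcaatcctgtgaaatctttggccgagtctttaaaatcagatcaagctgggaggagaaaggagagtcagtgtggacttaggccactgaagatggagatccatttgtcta
Fbxw18: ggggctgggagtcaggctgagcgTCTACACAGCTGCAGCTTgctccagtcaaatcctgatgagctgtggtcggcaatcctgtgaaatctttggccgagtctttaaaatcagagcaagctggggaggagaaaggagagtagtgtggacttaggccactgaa
Fbxw26: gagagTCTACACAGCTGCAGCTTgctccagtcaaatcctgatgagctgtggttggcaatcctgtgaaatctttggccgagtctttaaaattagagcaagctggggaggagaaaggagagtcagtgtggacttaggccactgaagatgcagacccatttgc
In the same order as printed, they lie for Fbxw21 at chr9:109161973-109162132, Fbxw20 at chr9:109234705-109234864, Fbxw15 at chr9:109568213-109568372, Fbxw24 at chr9:109626010-109626169, Fbxw18 at chr9:109702651-109702810 and Fbxw26 at chr9:109746040-109746199.

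The shared run, TCTACACAGCTGCAGCTT, is 18 bases long and began 86 to 107 bases before the gene start. Both strands were counted over the full window from 250 bases before to 50 bases after the start. The run was held by 10 of the 12 promoters of the block. It was held by 10 of 27025 mouse promoters in all, taken as 1 per gene, so by none of these outside the block. Inside it lies CAGCTG, a form of the E-box that basic helix-loop-helix factors bind, beginning 80 to 101 bases before the start. CAGCTG was found in 6 of the 6 printed genes' promoters, where the shared run holds it, in 11 of the 12 of the block and in 16.1% of all promoters. It was in 15 of 52 members with a promoter, and the 6 printed genes are among these 15. It was looked for after the shared run had been seen. It is 1 form of the general E-box CANNTG, which 12 of 12 promoters of the block held, beside 75.0% of the members and 72.1% of all promoters. The homeobox motifs TAATTG and TAATTA were in 0 of the 12, beside 8.15% and 5.31% of all promoters. Each was in 3.85% of the 52 members with a promoter. The TATA box TATAAA was in 0 of the 12 and in 0 of the 52 members, beside 14.2% of all promoters. All motifs were searched on both strands over the same window, and a match is a description of the letters. The 6 printed promoters were alike over their whole length: in 15 pairwise alignments the identity ran from 76.4% (Fbxw20 and Fbxw15) to 93.1% (Fbxw24 and Fbxw26), with a median of 85.5%. Over all 66 pairs of the block it ran from 46.1% to 96.7%. The pair at the low end was Fbxw23 and Fbxw24, and that at the high end Fbxw14 and Fbxw28.

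All 8 genes of the block stood more than 3 log2 units above background on all 9 arrays. Fbxw24 had 12.27, 12.36 and 12.30 with RNeasy, 12.24, 12.11 and 12.20 with PicoPure and 12.38, 12.29 and 12.14 with direct lysis. Fbxw15 had 12.16, 12.07 and 12.14, then 12.02, 11.86 and 11.84, then 12.18, 12.03 and 12.10. Fbxw18, next to Fbxw25 in the block, had 11.89 in all 3 RNeasy oocytes, 11.94, 11.80 and 11.85 with PicoPure and 12.09, 11.83 and 11.93 with direct lysis. For Fbxw24 and Fbxw18 each preparation overlapped at least one of the others, while in Fbxw15 all 3 PicoPure oocytes lay below all the rest. Fbxw21 had 11.94, 11.81 and 11.95 with RNeasy, 11.83, 11.67 and 11.77 with PicoPure and 12.02, 11.77 and 11.70 with direct lysis. Fbxw20 had 11.76, 11.96 and 11.74, then 11.73, 11.63 and 11.73, then 11.73, 11.77 and 11.50. Direct lysis overlapped the columns in both genes. Fbxw22 had 11.54, 11.63 and 11.66 with RNeasy, 11.81, 11.68 and 11.67 with PicoPure and 11.84, 11.64 and 11.64 with direct lysis. Fbxw26 had 11.66, 11.66 and 11.48, then 11.65, 11.64 and 11.22, then 11.61, 11.67 and 11.51, with the third PicoPure oocyte lowest. The kits did not overlap in 4 of the 8 genes: PicoPure was lower for Fbxw15, Fbxw20 and Fbxw24 and higher for Fbxw22. Over all genes, PicoPure lay wholly below RNeasy in 7.03% and wholly above it in 6.92%. None of the 4 passed the test between the kits. For Fbxw22 direct lysis spanned both. Fbxw13 varied most of the 8, with 10.43, 10.48 and 10.80 with RNeasy, 10.70, 10.94 and 11.54 with PicoPure and 10.97, 10.72 and 10.55 with direct lysis. The same PicoPure oocyte that was lowest for Fbxw26 was highest for Fbxw13.

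The differences between preparations were small across the block. Direct lysis minus purified RNA ran from -0.09 (Fbxw20) to 0.09 (Fbxw15) on the log2 scale, with a median of 0.03. PicoPure minus RNeasy ran from -0.22 (Fbxw15, SE 0.08) to 0.49 (Fbxw13, SE 0.22), with a median of -0.11. No gene of the block passed limma's test in either comparison, where the lowest adjusted p-values were 0.566 and 0.536, both for Fbxw15. The oocytes of 1 preparation differed little: the median pooled within-preparation SD of the 8 genes was 0.10 log2 units. It was 0.20 over the 45 members above background on all arrays and 0.19 over all genes so detected, sets not matched for signal level. The 4 other members more than 3 log2 units above background on every array had 0.04 (Fbxo11), 0.10 (Fbxo28), 0.10 (Fbxo30) and 0.13 (Fbxo8), so the small spread is not particular to the block. Among the 28 pairs of block genes, Pearson's r over the 9 arrays had a median of 0.207 and ran from -0.773 to 0.785, given as a description, since the pairs share arrays and preparations. These genes are close relatives in sequence, so a row may take up signal from a neighbour, and the level of a single paralog is uncertain. Fbxw17, whose number falls within the run of the block but which RefSeq places on chromosome 13, stood at background: it had 7.28, 7.47 and 7.28 with RNeasy, 7.499, 7.45 and 7.08 with PicoPure and 7.28 in all 3 direct lysis oocytes, and was above background on 5 of 9 arrays.

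**Figure D1:**
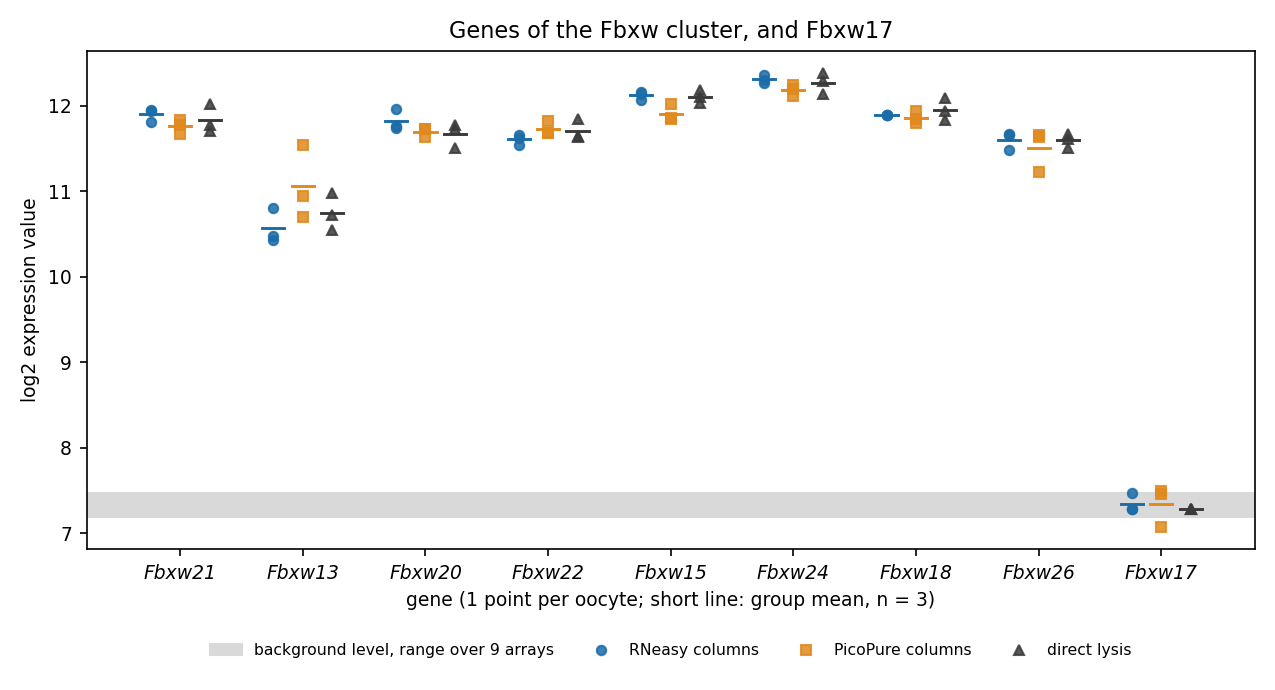
Log2 expression value of the 8 genes of the Fbxw block with a row of their own and of Fbxw17 in each of 9 oocytes, by preparation, with the group means as short lines (n = 3) and the range of the background level over the arrays in grey. The 8 genes lie between 10.43 and 12.38 on all arrays, far above the background of 7.19 to 7.47, and Fbxw17 lies at it.

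Over the whole family, 45 of 69 members (65.2%) lay above background on all 9 arrays, beside 43.1% of all 19938 genes. Another 13 did so on some arrays, and 11 members did so on none, beside 35.1% of all genes. By subfamily, the count above background on all arrays was 23 of 34 for Fbxo, 10 of 18 for Fbxl, 4 of 9 for the Fbxw genes outside the block, and 8 of 8 for the block. The count depends on where background is set, with 28 members at the 99th percentile of the receptor genes. That count is a description, as no share of all genes stands beside it.

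Of the 69 members, 12 stood more than 3 log2 units above background on every array, beside 1804 of all 19938 genes. These 12 were the 8 genes of the block and the 4 Fbxo genes Fbxo8, Fbxo11, Fbxo28 and Fbxo30. Fbxo30, which acts on the spindle kinesin Eg5, had 11.77, 11.75 and 11.90 with RNeasy, 11.80, 11.99 and 11.79 with PicoPure and 11.60, 11.80 and 11.80 with direct lysis. Fbxo28, a nuclear F-box protein, had 11.60, 11.62 and 11.51, then 11.59, 11.58 and 11.54, then 11.36, 11.66 and 11.64. The preparations overlapped in both genes. Fbxo8, which carries a Sec7 domain of the kind that acts on ARF GTPases, had 10.97, 11.25 and 10.99 with RNeasy, 10.83, 10.91 and 10.85 with PicoPure and 10.54, 10.72 and 10.86 with direct lysis. Its RNeasy oocytes were the 3 highest, and its direct lysis minus RNeasy difference of -0.36 (SE 0.11) did not pass limma's test (adjusted p = 0.224).

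**Figure D2:**
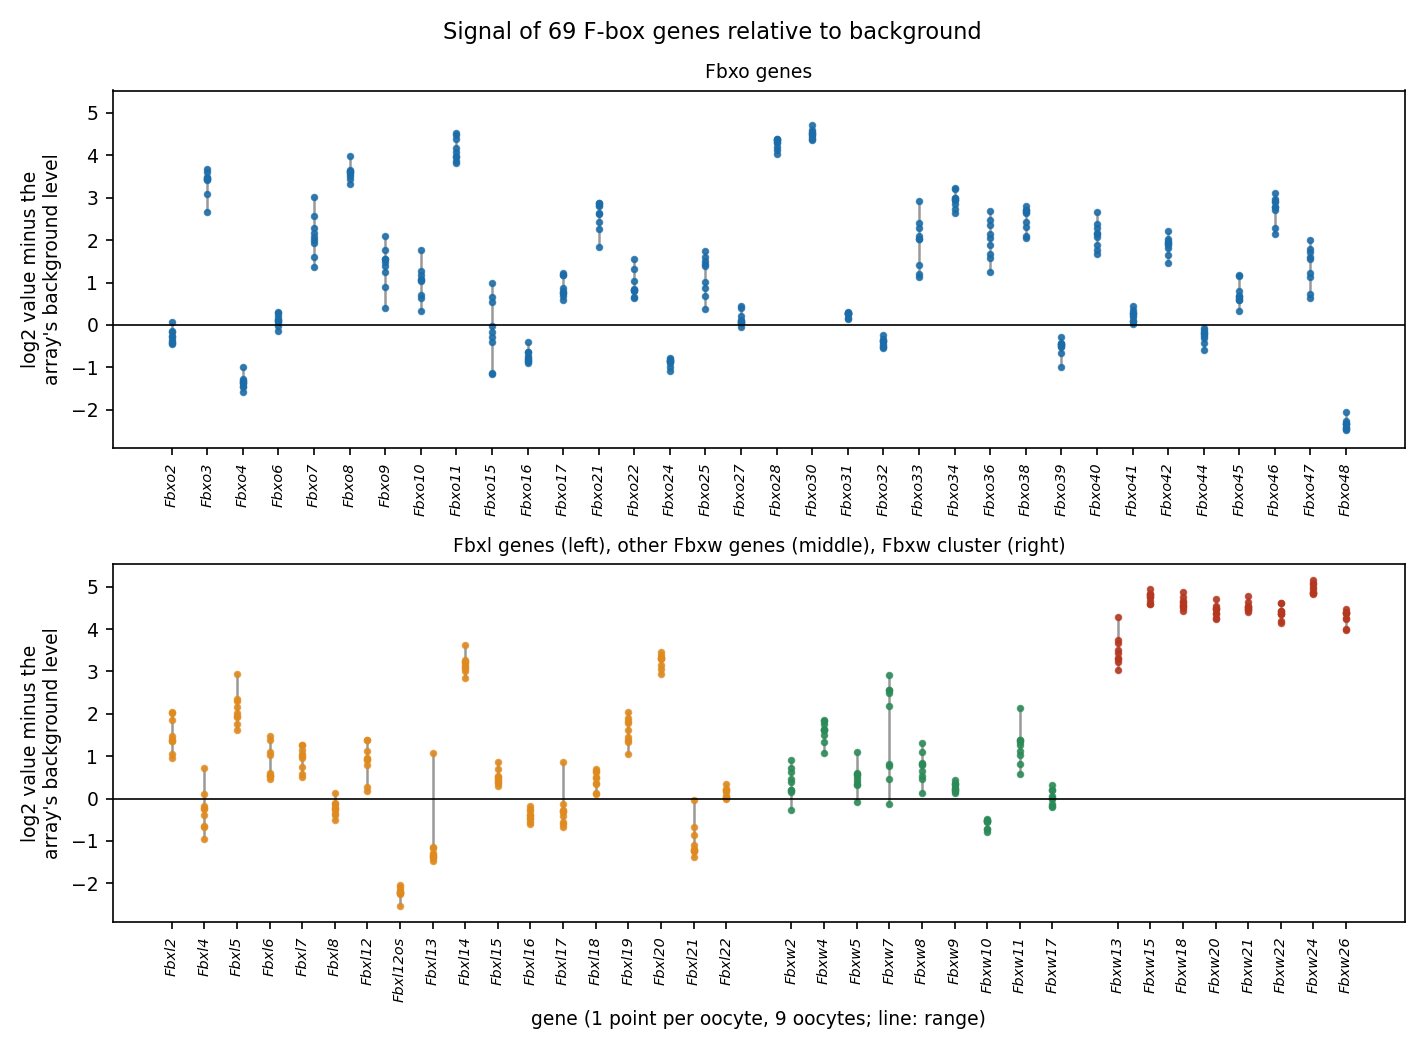
Log2 value minus the array's own background level for each of the 69 members, 1 point per oocyte (9 oocytes) and a line over their range, with the Fbxo genes above and the Fbxl genes, other Fbxw genes and Fbxw block below. The 8 block genes all stand more than 3 log2 units above the zero line in every oocyte, and 11 members lie below it in every oocyte.

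Members that guard the cell cycle were mostly above background. Of the 9 on that list, 6 lay above it on all arrays and 1 on none, and 0 passed the test in any comparison, with a median direct lysis minus purified difference of 0.03 beside 0.00 over all genes. Fbxo34 ran from 10.06 to 10.52 over the 9 oocytes. Fbxw11, which with its paralog Btrc recognises phosphorylated beta-catenin and cell cycle inhibitors, ran from 8.05 to 9.40, both ends being RNeasy oocytes. Btrc itself ran from 11.52 to 12.02. Fbxl2, an F-box protein with a lipid anchor, ran from 8.42 to 9.29, and Fbxl7, which acts on Aurora A, from 7.97 to 8.52. Fbxo31 and Fbxo4, which both act on cyclin D1, stood differently against background: Fbxo31 lay just above it on all 9 arrays (7.45 to 7.72) and Fbxo4 below it on all 9 (5.82 to 6.24). The other row of Fbxo31 lay above background on 5 arrays. Fbxw5, a regulator of centriole copying, lay above background on 8 arrays (7.40 to 8.35). Fbxw7 is described with the genes of lower signal in direct lysis.

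The lectin-like members, several of which bind sugar chains on misfolded glycoproteins, were at or near background. Of the 5, only Fbxo17 lay above it on all arrays (7.84 to 8.47). Fbxo27 did so on 8 arrays, Fbxo6 on 7, Fbxo2 on 1 and Fbxo44 on none. The 0 calls on this list came with a median direct lysis minus purified difference of 0.18, beside 0.00 over all genes.

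Members known from other tissues gave a mixed picture. Fbxo32 (atrogin-1), the ligase of muscle wasting, lay below background in all oocytes (6.77 to 7.01), while Fbxo40, named for its expression in muscle and acting on Irs1, lay above it in all (9.02 to 9.93). Fbxl21, which acts on the clock proteins called cryptochromes, lay above background on no array (5.88 to 7.16). Of the germline and stem cell members, Fbxo47, needed in meiotic prophase, lay above background on all arrays (7.90 to 9.19), whereas Fbxo24 and Fbxo39, known from the testis, did so on none. Fbxo15 did so on 3 arrays, all of purified RNA. Of these 8 members with Fbxl5, 0 passed the test in any comparison.

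The spread between oocytes of 1 preparation differed widely between detected members. It was smallest for Fbxo11 (pooled SD 0.04), Fbxo31 (0.07), Fbxl20 (0.08), Fbxw15 (0.08) and Fbxo41 (0.08), with Fbxw24, Fbxw18 and Fbxw22 next. Fbxo31 and Fbxo41 lay near background. The other row of Fbxo31 spread more widely. It had 7.93, 7.13 and 7.22 with RNeasy, 7.45, 7.21 and 7.57 with PicoPure and 6.76, 7.55 and 7.80 with direct lysis. Fbxl20, an F-box protein of the synapse, ran from 10.42 to 10.65 over all 9 oocytes. Among the rows used, the spread was largest for Fbxo47 (0.54), Fbxo36 (0.49), Fbxo7 (0.44), Fbxl12 (0.42), Fbxw11 (0.41), Fbxl2 (0.39), Fbxo22 (0.38) and Fbxo21 (0.34). Fbxo7, a proteasome-binding F-box protein linked to Parkinson disease, had 9.33, 9.83 and 9.07 with RNeasy, 9.36, 9.27 and 8.62 with PicoPure and 9.52, 10.30 and 9.33 with direct lysis. Fbxo36 ran from 8.47 to 9.96, and both ends were direct lysis oocytes. Fbxo22, which acts on the histone demethylase Kdm4a, was highest in the third RNeasy oocyte (9.02), the one with the cumulus markers, and ran from 7.87 to 8.57 in the others. The median SD of the members above background on all arrays was 0.14 with RNeasy, 0.17 with PicoPure and 0.17 with direct lysis, beside 0.15, 0.13 and 0.19 over all detected genes.

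The comparison of direct lysis with purified RNA asks how skipping the columns affects the transcripts read from 1 cell. Fbxo11, a ligase subunit that acts on the repressor Bcl6, was the single member that passed the test, and it was lower in crude lysate. It had 11.49, 11.44 and 11.46 with RNeasy, 11.71, 11.66 and 11.73 with PicoPure and 11.20, 11.10 and 11.13 with direct lysis. The 3 groups did not overlap, with direct lysis lowest and PicoPure highest. In crude lysate Fbxo11 fell by 0.44 log2 units (SE 0.05), or 1.36-fold, against the mean of both kits (limma adjusted p = 0.0152). Against PicoPure it fell by 0.56 (SE 0.06, adjusted p = 0.0124), and the test over all 3 preparations gave adjusted p = 0.0260. Against RNeasy the difference was -0.32 (SE 0.06, adjusted p = 0.0736), which did not pass, and PicoPure minus RNeasy was 0.23 (adjusted p = 0.357). Fbxo11 was also the detected member with the smallest spread, and its call rests on few oocytes: the adjusted p was 0.0550 without the first RNeasy oocyte and 0.05003, just above the threshold, without the second PicoPure oocyte. The call against PicoPure was lost without any single PicoPure oocyte, at adjusted p-values of 0.0570, 0.0615 and 0.0558. The call over all 3 preparations was lost without any single oocyte other than the first of direct lysis.

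This 1 call among 69 members stands beside 201 calls among 19938 genes, or 1.01% of all genes tested. At an unadjusted p under 0.05 there were 13 members (18.8%) beside 14.2% of all genes. Of the members, 37 had a positive and 32 a negative difference, with a median of 0.02 beside 0.00 over all genes. The count of called members was 2 without the third RNeasy oocyte, beside 0.557% of all genes, and 2 without the first PicoPure oocyte, beside 0.306%.

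The 3 largest differences, those of Fbxw7, Fbxo15 and Fbxo33, were negative, and none of them passed the test. In 8 members every direct lysis oocyte lay below every column oocyte, 11.6% of the 69 beside 3.72% of all genes. They were Fbxl5, Fbxo9, Fbxo11, Fbxo15, Fbxo25, Fbxo33, Fbxw2 and Fbxw7. In 1 member, Fbxl15, every direct lysis oocyte lay above, 1.45% beside 4.31% of all genes. Among the 52 members whose mean lay above the mean background, the counts were 7 (13.5%) beside 5.01% of such genes, and 1 (1.92%) beside 3.76%. Leaving out a direct lysis oocyte raised these shares over all genes too. Without the third one, 12 members were lower beside 7.58% of all genes and 5 were higher beside 7.45%. Without the first, 9 were lower beside 6.54% and 6 higher beside 7.39%. Without the second, 8 were lower beside 6.78% and 6 higher beside 9.39%. Leaving out a PicoPure oocyte gave 2 members higher, beside 4.63% to 4.90% of all genes, and leaving out an RNeasy oocyte 1. Apart from Fbxo11 none of the 9 passed the test, and the following values are a description.

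Fbxw7, the subunit that brings cyclin E, Myc and Notch to degradation, had the largest difference of all members. Its row had 10.33, 9.83 and 8.24 with RNeasy, 9.76, 9.44 and 9.74 with PicoPure and 7.68, 7.15 and 8.08 with direct lysis. The lowest column oocyte, the third of RNeasy and the one with the cumulus markers, stood close to the highest crude lysate. The difference was -1.92 log2 units (SE 0.43, adjusted p = 0.101), and without that RNeasy oocyte it was -2.23 (adjusted p = 0.0335). The other row of Fbxw7, the one of the 2 that lists its RefSeq mRNAs, differed less: it had 8.04, 7.72 and 8.01, then 8.08, 8.22 and 9.06, then 8.02, 7.74 and 7.43, a difference of -0.45. In that row direct lysis and RNeasy overlapped, and the mean of both rows gave -1.19 (adjusted p = 0.0709).

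Fbxo33, which acts on the RNA-binding protein Ybx1, had 9.82, 9.36 and 9.76 with RNeasy, 10.12, 9.28 and 9.28 with PicoPure and 8.65, 8.49 and 8.39 with direct lysis. The difference was -1.09 (SE 0.21, 2.13-fold, adjusted p = 0.0621), and without the first PicoPure oocyte -0.95 (adjusted p = 0.0473). Fbxo9, a subunit with a part in mTOR signalling, had 8.97, 9.03 and 8.86 with RNeasy, 9.29, 8.81 and 8.72 with PicoPure and 8.13, 8.54 and 7.65 with direct lysis. The column oocytes lay close together and the crude lysates wider apart, and the difference was -0.84 (SE 0.20, adjusted p = 0.114). Fbxo25, a relative of Fbxo32, had 8.91, 8.71 and 8.34, then 8.79, 9.01 and 8.65, then 7.90, 7.67 and 8.27. Its difference was -0.79 (SE 0.17, adjusted p = 0.0910), with the lowest RNeasy and the highest direct lysis oocyte nearly meeting.

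Fbxo15, a target of Oct4 in embryonic stem cells, had 7.13, 7.91 and 7.31 with RNeasy, 7.16, 8.25 and 7.78 with PicoPure and 6.82, 6.12 and 6.12 with direct lysis. It was above background on no direct lysis array and on 3 of 6 column arrays. Measured means were 7.59 ± 0.46 (SD, n = 6) in purified RNA and 6.35 ± 0.40 (SD, n = 3) in crude lysate. The difference was -1.24 as measured (limma adjusted p = 0.107) and -0.41 with values raised to background. With only the crude lysates raised to background, the purified mean lay 1.26-fold above them. This is no firm lower limit, as column values below background enter that mean. Fbxl5, the iron-sensing subunit that acts on iron regulatory proteins, had 9.35, 10.20 and 9.82 with RNeasy, 9.34, 9.28 and 9.55 with PicoPure and 8.85, 9.04 and 9.18 with direct lysis. The gap between the lowest PicoPure and the highest direct lysis oocyte was small, and the difference was -0.57 (SE 0.18, adjusted p = 0.217). Fbxw2, which acts on the placental factor Gcm1, had 8.04, 7.66 and 7.64, then 8.10, 7.99 and 7.71, then 7.42, 7.01 and 7.46, a difference of -0.56 (SE 0.15, adjusted p = 0.148).

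**Figure D3:**
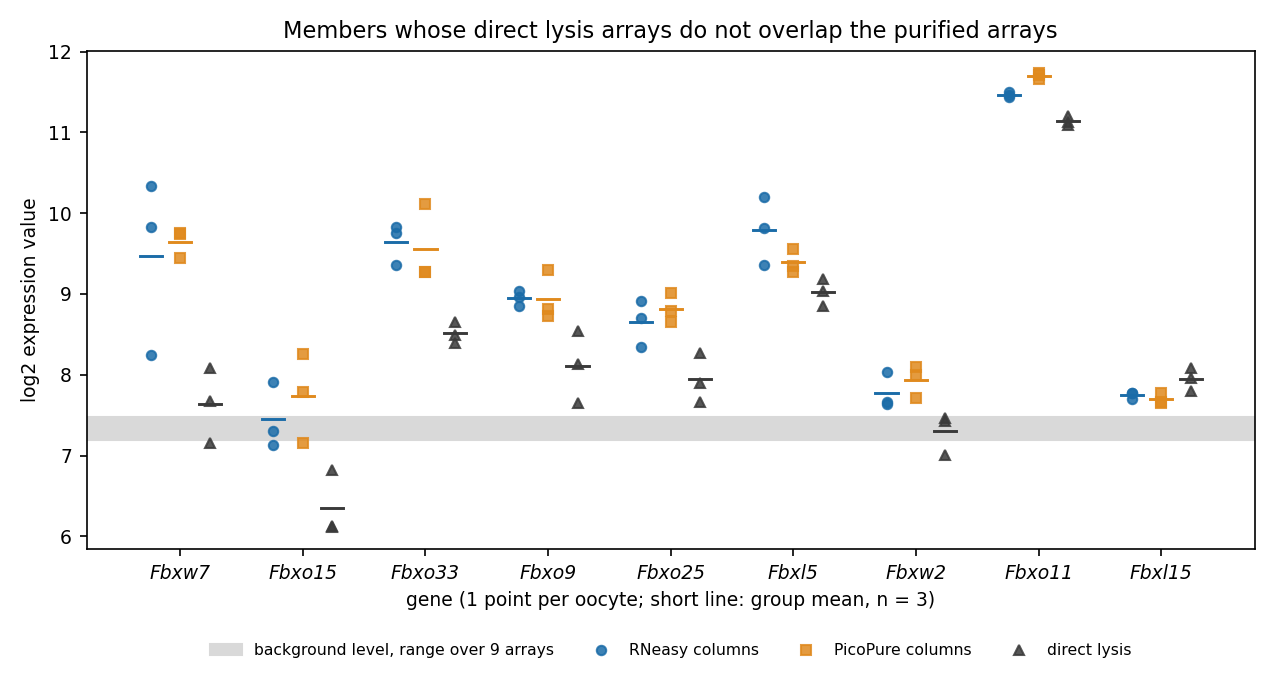
Log2 expression value in each of 9 oocytes, by preparation, for the 9 members whose direct lysis oocytes all lie on one side of the column oocytes, with group means as short lines (n = 3) and the range of the background level in grey. Direct lysis is lower in 8 genes, most of all in Fbxw7, and higher in Fbxl15, and Fbxo11 alone passed the test.

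On the higher side, the largest differences were those of Fbxl13 (0.85, SE 0.48, adjusted p = 0.460), Fbxl17 (0.48, SE 0.25, adjusted p = 0.429) and Fbxo7 (0.47, SE 0.28, adjusted p = 0.478). Fbxl13 and Fbxl17 each lay above background in 1 oocyte only, of direct lysis, and all 3 genes overlapped between direct lysis and the columns. Fbxl15, which acts on the ligase Smurf1, had 7.78, 7.70 and 7.78 with RNeasy, 7.66, 7.65 and 7.78 with PicoPure and 8.09, 7.80 and 7.96 with direct lysis, a difference of 0.23 (SE 0.07, adjusted p = 0.233). Fbxo46 had 9.56, 9.98 and 9.75, then 10.16, 10.03 and 10.02, then 10.35, 10.20 and 10.15, a difference of 0.32 (SE 0.10, adjusted p = 0.214). Its RNeasy oocytes were the 3 lowest, and a PicoPure oocyte reached the direct lysis range. Fbxo41, a neuronal F-box protein, lay near background on all arrays (7.35 to 7.67) and differed by 0.16 (SE 0.07, adjusted p = 0.320). Fbxl19, which carries a CpG-binding zinc finger, ran from 8.52 to 9.32 and differed by 0.33 (SE 0.16, adjusted p = 0.393), and by 0.37 from PicoPure alone.

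**Figure D4:**
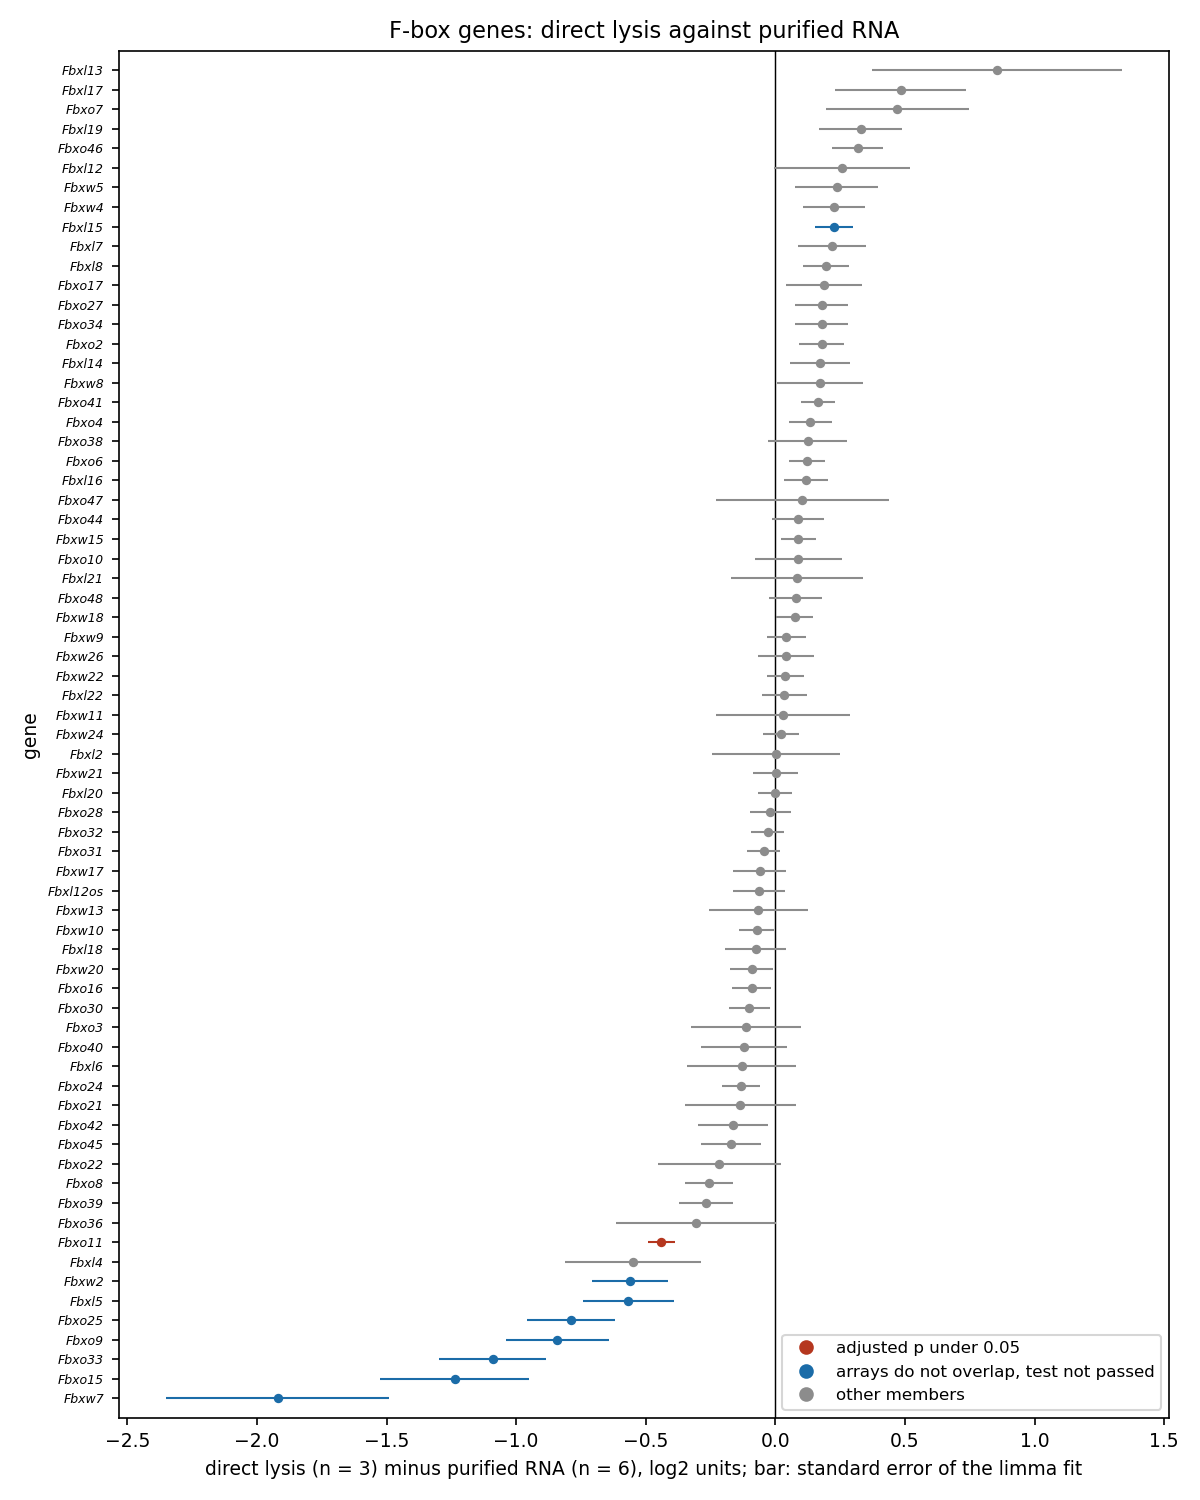
Direct lysis (n = 3) minus purified RNA (n = 6) in log2 units for each of the 69 members, ordered by the difference, with bars for the standard error of the limma fit. The differences run from -1.92 (Fbxw7) to 0.85 (Fbxl13), and 1 gene, Fbxo11, passed the test at an adjusted p under 0.05.

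The comparisons of direct lysis with each kit share the direct lysis oocytes, and their values stand side by side. Against RNeasy alone 0 members passed limma's test and 12 (17.4%) had an unadjusted p under 0.05, beside 0.436% of all genes called and 13.4% with such a p. Against PicoPure alone 1 member, Fbxo11, passed and 10 (14.5%) had such a p, beside 0.597% called and 12.3%. Over the 3 preparations at once, 1 member passed and 14 (20.3%) had such a p, beside 0.637% and 12.8%. Fbxw7 differed by -1.83 from RNeasy and by -2.01 from PicoPure, Fbxo33 by -1.14 and -1.05, Fbxo25 by -0.71 and -0.87, and Fbxl5 by -0.77 and -0.37.

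Between the kits, which asks whether the choice of column matters, 0 members passed limma's test, beside 12 of all genes or 0.0602%. At an unadjusted p under 0.05 there were 5 members (7.25%), beside 7.98% of all genes. In 7 members (10.1%) all PicoPure oocytes lay above all RNeasy oocytes, beside 6.92% of all genes, and in 4 (5.80%) all lay below, beside 7.03%. The 7 were Fbxl6, Fbxo10, Fbxo11, Fbxo46, Fbxw5, Fbxw8 and Fbxw22, and the 4 were Fbxo8 and the 3 block genes Fbxw15, Fbxw20 and Fbxw24. Leaving out an oocyte gave 9 to 11 members higher, and 6 to 12 lower, where the 12 came without the third RNeasy oocyte, beside 10.7% of all genes. A dropped oocyte can only add genes without overlap, over all genes as over the members, so these counts are a description. The differences, PicoPure minus RNeasy, ran from -0.47 to 0.66 with a median of -0.01, beside -0.03 over all genes. Fbxo10, which acts on the survival protein Bcl2, had the largest difference: 8.11, 7.59 and 8.11 with RNeasy against 8.97, 8.52 and 8.32 with PicoPure, and 8.32, 8.32 and 8.44 with direct lysis. The kits did not overlap, and the difference was 0.66 (SE 0.19, adjusted p = 0.441). Fbxo45, a neuronal subunit that works with Mycbp2 in place of Cul1, had 8.05, 7.84 and 7.80 against 7.98, 8.42 and 8.43, a difference of 0.38 (SE 0.13, adjusted p = 0.536). Its first PicoPure oocyte lay within the RNeasy range. Lower with PicoPure were Fbxl5 by -0.40 (SE 0.20, adjusted p = 0.676), which was -0.62 without the first and -0.20 without the second RNeasy oocyte, and Fbxo8 by -0.21 (SE 0.11, adjusted p = 0.683), which was -0.12 without the second RNeasy oocyte.

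Most partners of the F-box proteins lay above background in every oocyte, and 1 of them changed between preparations. Of 13 genes of the SCF core and its conjugating enzymes with a row, 11 lay above background on all arrays and 0 passed the test in any comparison. The adaptor Skp1 ran from 12.20 to 12.51 and the scaffold Cul1 from 11.95 to 12.33, with differences between direct lysis and purified RNA of 0.00 and -0.19 (adjusted p = 0.992 and 0.270). The RING subunit Rbx1 ran from 11.36 to 12.07, with a difference of -0.25 (adjusted p = 0.356). All 9 listed genes of the COP9 signalosome, which removes Nedd8 from cullins, lay above background on all arrays, and 0 passed. Of 12 genes that attach Nedd8 to cullins or exchange their F-box subunits, 11 lay above background on all arrays and 1 fell in crude lysate. This was Dcun1d5, a co-factor of cullin neddylation, with 11.45, 11.66 and 11.52 with RNeasy, 11.53, 11.45 and 11.52 with PicoPure and 8.69, 8.27 and 9.19 with direct lysis. It fell by 2.80 log2 units (SE 0.18, limma adjusted p = 0.00236). Of 8 F-box genes with names of another form, 5 lay above background on all arrays and 0 passed. Skp2, which acts on the inhibitor p27, lay above it on 7 arrays (7.25 to 8.44).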

How the data were processed

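RNA of 9 single metaphase II oocytes, 3 per preparation, was amplified and hybridised to 1-colour arrays. The table that the authors deposited has 35556 rows with a normalized log2 value for each of the 9 arrays and no gaps. The submitters' processing notes name GCOS, GCRMA and the Affymetrix Expression Console, with neither version nor order. No source used here states the scale, and the range of the values was taken to mean log2 (2.41 to 13.90, array medians 7.12 to 7.24). No scanner files were used, so background correction and normalization could not be repeated.

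Gene symbols came from the probe table of the array platform: 21789 rows carried 1 symbol, 1621 several and 12146 none. Where a gene had several rows, the one with the highest mean was used, which left 19938 genes, and no filter was applied. A gene counted as above background on an array when it exceeded the 95th percentile of 1233 receptor genes there, a limit chosen for this work that is no test of detection. All 69 members matched RefSeq by Entrez identifier.

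Differences were tested with limma 3.58.1 (lmFit and eBayes) in R 4.3.3, in 1 fit of all 9 arrays (3 groups, 6 residual degrees of freedom). Tests were two-sided, p-values were adjusted by Benjamini-Hochberg over the 19938 genes, and the threshold was 0.05. The contrasts were direct lysis minus the mean of both kits, PicoPure minus RNeasy, direct lysis minus each kit. A moderated F tested all preparations at once. The fit was tested on simulated data. The number of arrays limits the precision. Promoters were aligned in pairs with Biopython 1.88 (global, match 1, mismatch -1, gap opening -2, extension -0.5), and identity was counted over all aligned columns.

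The members and all lists were chosen with earlier results of these data known. Genes named with full values were the listed Fbxw genes, the members past the threshold, for each contrast the 3 with the smallest p in each direction among those above background on every array of the higher group, the 8 with the largest and the 8 with the smallest spread, the role lists, and 5 fixed partners. Members without overlap between direct lysis and the columns were singled out after their values were seen. Fbxw17 stood on the list of block genes although RefSeq places it on chromosome 13, and it was left out of all counts for the block. Alternatives covered normalization, the floor, the rows of a gene, the filter, the variance model, the replicate number as a block, the background percentile and leaving out each oocyte.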

Additional observations from a re-analysis of the deposited data

Results flagged for a closer look

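Each member was screened over all 9 oocytes for a highest or lowest oocyte whose gap to the next, divided by the whole range, exceeds Dixon's 95% critical value. Of 69 members, 14 had such an oocyte: 10 times it was a direct lysis oocyte, 2 times PicoPure and 2 times RNeasy. Chance flags about 1 in 20 groups of 1 kind, but the 9 oocytes span 3 preparations and many values repeat, so that rate may not apply. The screen covered members only, so no share of all genes stands beside the 14. Over all detected genes the median SD was also largest with direct lysis, at 0.19, beside 0.15 with RNeasy and 0.13 with PicoPure.

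The second direct lysis oocyte stood apart in 5 members. For Fbxl13, a gene of the regulatory complex of motile cilia, it had 8.36 while the other 8 oocytes ran from 5.88 to 6.09, all below background. It was the lowest for Fbxo21 (9.13, next 9.68), Fbxo42 (8.74, next 9.09), Fbxo39 (6.30) and Fbxw10 (6.49), of which Fbxo39 and Fbxw10 lay below background throughout. The third direct lysis oocyte was highest for Fbxl17 (8.12, next 7.14, and the only one above background), Fbxl14 (10.89, next 10.52) and Fbxw5 (8.35, next 7.86). The first direct lysis oocyte was highest for Fbxw18 (12.09, next 11.94) and for Fbxo4 (6.24, below background).

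The third PicoPure oocyte was highest for Fbxw13 (11.54, next 10.97) and lowest for Fbxw26 (11.22, next 11.48), both genes of the Fbxw block. The third RNeasy oocyte was highest for Fbxo31 in the row used (7.72, next 7.55), but not in its other row. The second RNeasy oocyte was lowest for Fbxo44 (6.68, next 6.99), below background throughout.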

How the results depend on the processing

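Differences of single members were followed for 29 gene and contrast pairs under 493 alternatives in all. Of these 483 kept their direction and their side of the threshold, 7 lost the call, 3 gained it and 0 changed direction. The losses were all of Fbxo11. The gains were Fbxw7 and Fbxo33 against purified RNA and Fbxo11 against RNeasy with values raised to background (adjusted p = 0.0433), which raised the count of called members there from 0 to 1. With the replicate number as a block the counts for direct lysis against purified RNA, against PicoPure and over all preparations were 0, 0 and 0, with Fbxo11 at adjusted p-values of 0.0680 and 0.0718 in the first 2. Same-numbered oocytes correlated at -0.0888 to 0.134 in their deviations from the group means, and differently numbered ones at -0.108 to 0.171. With 3 oocytes per group, these correlations cannot show whether the numbers pair the oocytes. Leaving out 1 oocyte at a time gave 0 to 2 called members against purified RNA, 0 to 1 against PicoPure and 0 to 1 over all preparations. Further quantile normalization gave 0 over all preparations, and 4 members in place of 1 higher in direct lysis without overlap. That count ran from 1 to 6 with 1 oocyte left out, and the count lower without overlap ran from 7 to 12 over its alternatives, which were chosen after seeing the data. Between the kits, members lower with PicoPure without overlap numbered 2 with each array centred on its median and 19 (45.4% of all genes) with values raised to background, where genes below background take the level of their array. With 1 oocyte left out, this count ran from 6 to 12 and that of members higher from 9 to 11, alternatives also chosen after seeing the data. Fewer oocytes can only raise a count without overlap, for all genes as for members. Counts without overlap that have no share of all genes beside them are a description only. The count of members above background on all arrays was 28 at the 99th percentile of the receptor genes, also without a share of all genes. The causes were not tested. The call of Dcun1d5 held under all 17 alternatives (adjusted p up to 0.0180). PicoPure against RNeasy gave 0 called members under all 17 alternatives, and all 8 block genes stayed above background on all arrays under every alternative run. Values near background have no firm order, which touches Fbxo15, Fbxw2, Fbxl15 and Fbxo41.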

Other observations

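Many members had exactly the same deposited value in several oocytes. A value shared by at least 3 of the 9 oocytes was found in 23 of 69 members (33.3%), beside 30.2% of all genes. Fbxw17 had 7.28 in 5 oocytes, and Fbxl12, which acts on the inhibitor p21, had 8.19 in 4 oocytes of all 3 preparations, although its other values ran from 7.42 to 8.65. Fbxo3 had 10.70 in 4 oocytes and ran from 9.91 to 11.09. In the Fbxw block only Fbxw20 had such a value, 11.73 in 3 oocytes. The cause was not tested.

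Fbxl4, a mitochondrial member of the family, lay above background on 2 of 9 arrays, among them the third PicoPure oocyte at 7.97. Fbxl14, which acts on the repressor Snai1, lay above it in every oocyte (10.32 to 10.89). Fbxo3 (9.91 to 11.09), Fbxo38 (9.32 to 10.06) and Fbxw4 (8.55 to 9.09) lay above it in every oocyte, and Fbxo16, Fbxl16 and Fbxo48 in none.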
